A study of Mus musculus with 6 samples.

Results

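Polycomb repressive complex 1 (PRC1) attaches ubiquitin to histone H2A and helps to keep developmental genes silent. The genes described here are Ring1 and Rnf2, which encode its ubiquitin ligases Ring1a and Ring1b, and the Pcgf family, whose products each pair with a ligase and decide which form of PRC1 is built. Members were chosen by symbol, the 2 ligase genes together with Bmi1 (also known as Pcgf4), Pcgf1, Pcgf2, Pcgf3, Pcgf5 and Pcgf6. Ring1 lies on chromosome 17, Rnf2 on 1, Bmi1 on 2, Pcgf1 on 6, Pcgf2 on 11, Pcgf3 on 5, and Pcgf5 and Pcgf6 on 19. All 8 had a row in the deposited table of 20325 genes, and all 8 had the mean of at least 10 needed for testing. RNA came from C3H10T1/2 cells, a mesenchymal line from C3H mouse embryos, at passage 10 to 15. Parental cells were used throughout. Of these, 3 samples received scramble siRNA (the controls) and 3 received siRNAs against both Ring1a and Ring1b (the knockdowns). No other genotype or agent is named for either group, and the sources used here give no time after transfection. The series asked how the transcriptome of mesenchymal progenitors changes when both ligases are depleted.

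In the cell, a ligase and a Pcgf protein bind through their RING domains to form the active core. Cores with Bmi1 or Pcgf2 can take up Cbx and Phc proteins and are then called canonical PRC1, in which Cbx proteins read the methyl mark that PRC2 leaves on histone H3. Cores with Pcgf1, Pcgf3, Pcgf5 or Pcgf6 hold Rybp or Yaf2 instead and are called variant PRC1. Depletion of both ligases lowers the subunit that all of these forms share, and only RNA was examined here.

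Values are a normalized signal per gene that the authors derived from estimated read counts. Normalization is meant to make libraries comparable for the same gene, but the values of knockdown replicate 2 still shifted with transcript length (below). Deposited totals were 13115800 to 13655900 in 5 libraries and 19471600 in knockdown replicate 2. Depth before normalization was estimated at 4580090 to 51801600 reads per library, lowest in knockdown replicate 2 and, with 5447200 reads, next lowest in control replicate 2. Knockdown replicate 2 stood apart from the rest. Across genes, the correlation of its log2 values with any other library was 0.82 to 0.87, against 0.94 to 0.99 for pairs without it. Transcripts of ribosomal proteins made up 20.6% of its signal and 5.05 to 5.79% of the signal elsewhere. The log2 fold changes of the members are therefore given with and without that library. All 12 mesenchymal markers examined, among them Col1a1, Vim, Prrx1 and Twist1, were above the testing minimum. Of 20 markers of epithelial, endothelial, leukocyte, skeletal muscle and adipocyte cells, 14 had a mean under 10, and the adipocyte genes Plin1 and Cfd were at 0 in every library. The others were Tek, Fabp4, Des, Cdh1, Lyz2 and Cd68. The endothelial gene Tek was the highest of them (94.6 ± 9.84 in the controls and 128 ± 23.4 in the knockdowns, SD, n = 3). Summed skeletal muscle markers were at 7.52 to 9.94 in the controls and 24.9 to 106 in the knockdowns, and adipocyte markers at 35.1 to 44.3 and 50.5 to 162, in each case highest in knockdown replicate 2. The muscle sums were almost all Des, and the adipocyte sums rested mainly on Fabp4 (30.1 ± 3.02 in the controls and 87.0 ± 64.6 in the knockdowns, SD, n = 3), while Adipoq went the other way (8.39 ± 3.11 and 0.851 ± 0.751). Their part in the results was not tested.

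The promoter windows of the canonical pair, Bmi1 and Pcgf2, are shown because these were the most abundant Pcgf transcripts per length (below) and because their windows share letters that no other member's window holds. RefSeq promoter windows of 300 bases around a transcript start, on build GRCm38.p6, matched 7 of the 8 members. The motifs CACGTG, the palindromic E-box, and CCATNTT, a core read by the factor YY1, were searched on both strands, and were picked after the sequences had been seen. They do not overlap each other. The stretches printed lie before the RefSeq start on the coding strand, at chr2:18676791-18676867 (plus strand, Bmi1) and chr11:97699718-97699797 (minus strand, Pcgf2), with both motifs in capitals. The Pcgf2 stretch lies inside the gene as drawn in the GENCODE M21 annotation, which begins further upstream, at 97700497.
Bmi1: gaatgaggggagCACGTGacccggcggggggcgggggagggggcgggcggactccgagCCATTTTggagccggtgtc
Pcgf2: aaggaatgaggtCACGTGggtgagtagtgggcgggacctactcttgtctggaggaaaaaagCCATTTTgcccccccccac
In both, CACGTG came first and CCATNTT followed nearer the start. Of 32851 promoter windows of that length in the mouse table, 7.15% held CACGTG, 16.1% held CCATNTT and 1.15% held both. The windows of Ring1, Rnf2, Pcgf3, Pcgf5 and Pcgf6 held neither. A further motif searched, TGACGTC, was found among members in the Ring1 window alone, and in 3.2% of all windows. Most member windows were rich in CpG, with 22 to 37 CpG in those of Ring1, Rnf2, Bmi1, Pcgf3 and Pcgf6, and 10 in that of Pcgf2. Over all promoters the median was 7 and the 75th percentile 20, so such counts are not particular to the members. The 3 windows of Pcgf5 held 34, 5 and 35.

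Rnf2, the gene of Ring1b, was strongly reduced in every knockdown library. For Rnf2, control replicates 1 to 3 read 815, 829 and 799 and knockdown replicates 1 to 3 read 129, 76.5 and 152. The groups lay far apart. In bulk RNA, fewer cells expressing a gene and less RNA per cell cannot be told apart. The knockdown mean was 14.6% of the control mean. The fitted log2 fold change was −2.82 (SE 0.28, 95% interval −3.50 to −2.14), and Rnf2 was the only member called with all 6 libraries (limma adjusted p = 0.00946). The value of 76.5 in knockdown replicate 2 rests on about 18 reads, whose 95% Poisson interval of 45.4 to 121 overlaps that of replicate 1, from 113 to 147. Rnf2 was also the only member in the authors' deposited table of 323 differential genes, which gives its knockdown-to-control fold as 0.148. The name of that table marks a fold cutoff, so the absence of the other members does not mean that they were unchanged. The call was lost without control replicate 1, 2 or 3 or without knockdown replicate 1 (limma adjusted p = 0.0735, 0.0742, 0.0852 and 0.0646), while the log2 fold change moved little, from −2.81 to −2.90. Without knockdown replicate 2 it was −2.53 (SE 0.08, limma adjusted p = 1.98e-09).

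Ring1, the gene of Ring1a, was lower in the knockdown by a smaller margin that missed the threshold with all libraries. Ring1 signal was 336, 386 and 374 among controls and 162, 268 and 186 among knockdowns. The groups did not overlap, and knockdown replicate 2 was the library nearest to the controls. The knockdown mean was 56.3% of the control mean (log2 fold change −0.86, SE 0.23, 95% interval −1.41 to −0.30, limma adjusted p = 0.104). In knockdown replicates 1 and 3 alone the mean was 47.7% of the control mean, and without replicate 2 the fall passed the test (log2 fold change −1.06, SE 0.10, limma adjusted p = 3.86e-06). It also passed with all 6 libraries once a trend with transcript length was taken out of each (log2 fold change −1.03, limma adjusted p = 0.0118).

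**Figure D1:**
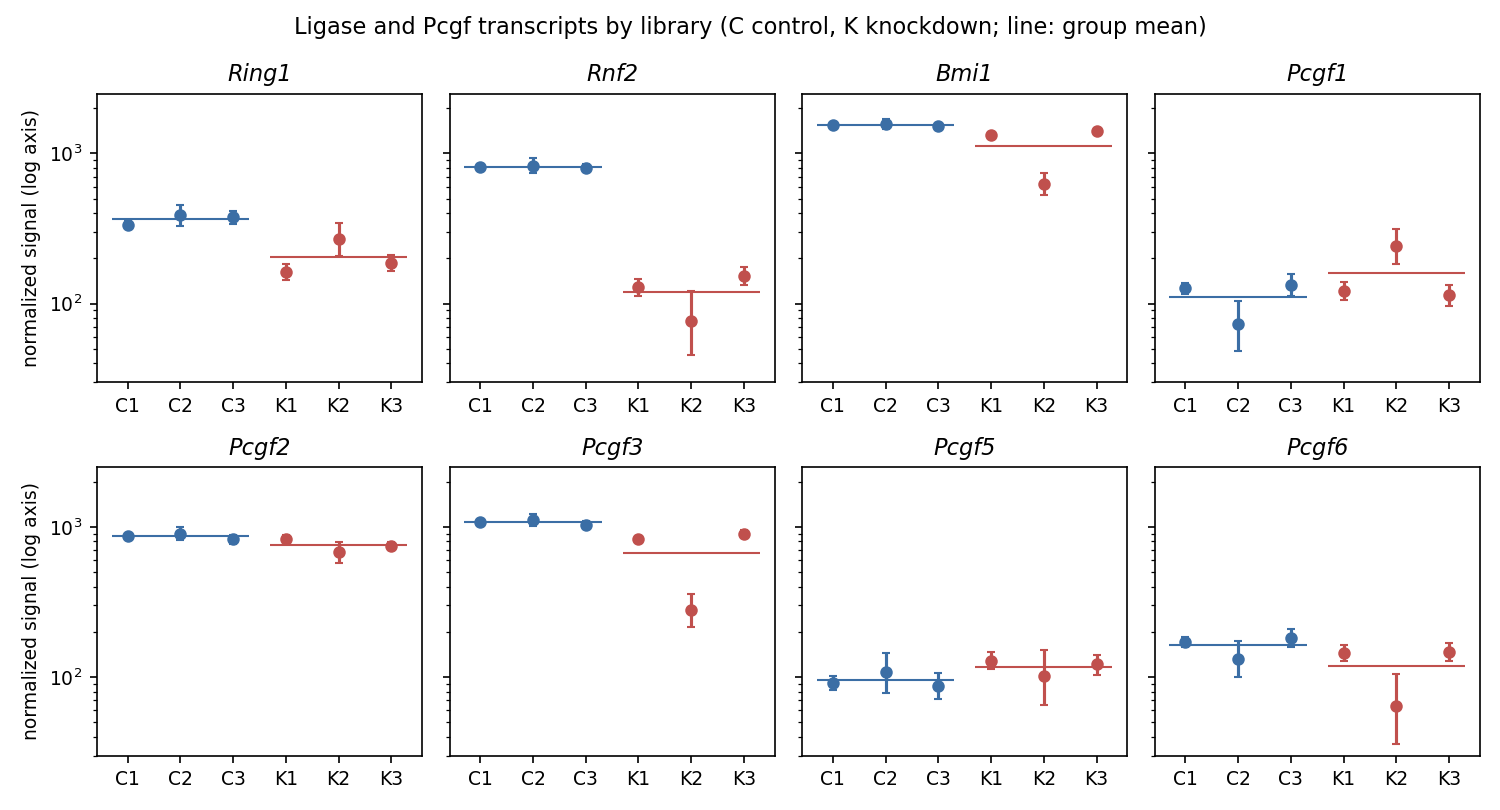
Normalized signal (log axis) of the 8 genes in control (C1 to C3, blue) and knockdown (K1 to K3, red) libraries; bars are 95% Poisson intervals from the estimated reads (counting error only) and lines are group means. Rnf2 lay at 799 to 829 in the controls and 76.5 to 152 in the knockdowns, Ring1 at 336 to 386 and 162 to 268, and knockdown replicate 2 lay far below its group in Bmi1, Pcgf3 and Pcgf6.

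Ring1 made up a larger share of the ligase RNA in the knockdowns than in the controls, and which ligase led there depended on the transcript length used. Per kilobase of principal transcript, Rnf2 stood at 256 ± 4.86 and Ring1 at 180 ± 12.9 in the controls (SD, n = 3), and at 37.5 ± 12.2 and 101 ± 27.3 in the knockdowns. Ring1 made up 39.2, 42.1 and 42.3% of ligase RNA per kilobase in the controls and 66.3, 84.6 and 65.7% in the knockdowns. With these lengths Ring1 led in every knockdown library and Rnf2 in every control. The median length of all coding transcripts was tried after the data were seen, and is 1106 nt for Rnf2 in place of 3180.5 nt. With it the Ring1 share was 18.3, 20.2 and 20.3% in the controls and 40.6, 65.6 and 40.0% in the knockdowns. Rnf2 then still led in knockdown replicates 1 and 3. The Ring1 share was higher in every knockdown than in any control with either length. The log2 ratio of Rnf2 to Ring1 per kilobase averaged 0.51 ± 0.10 in the controls and −1.45 ± 0.86 in the knockdowns (SD, n = 3), a difference of −1.96. All 3 knockdowns lay below all 3 controls, and the exact permutation test gave p = 0.1 (two-sided), the smallest that 3 against 3 allows. Ring1 and Rnf2 together retained 27.6, 35.8 and 32.0% of the control mean per kilobase in knockdown replicates 1, 2 and 3, which averages 31.8% (exact permutation p = 0.1, two-sided). Without knockdown replicate 2 the difference in the log2 ratio was −1.47, and the ligases together retained 29.8%.

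**Figure D2:**
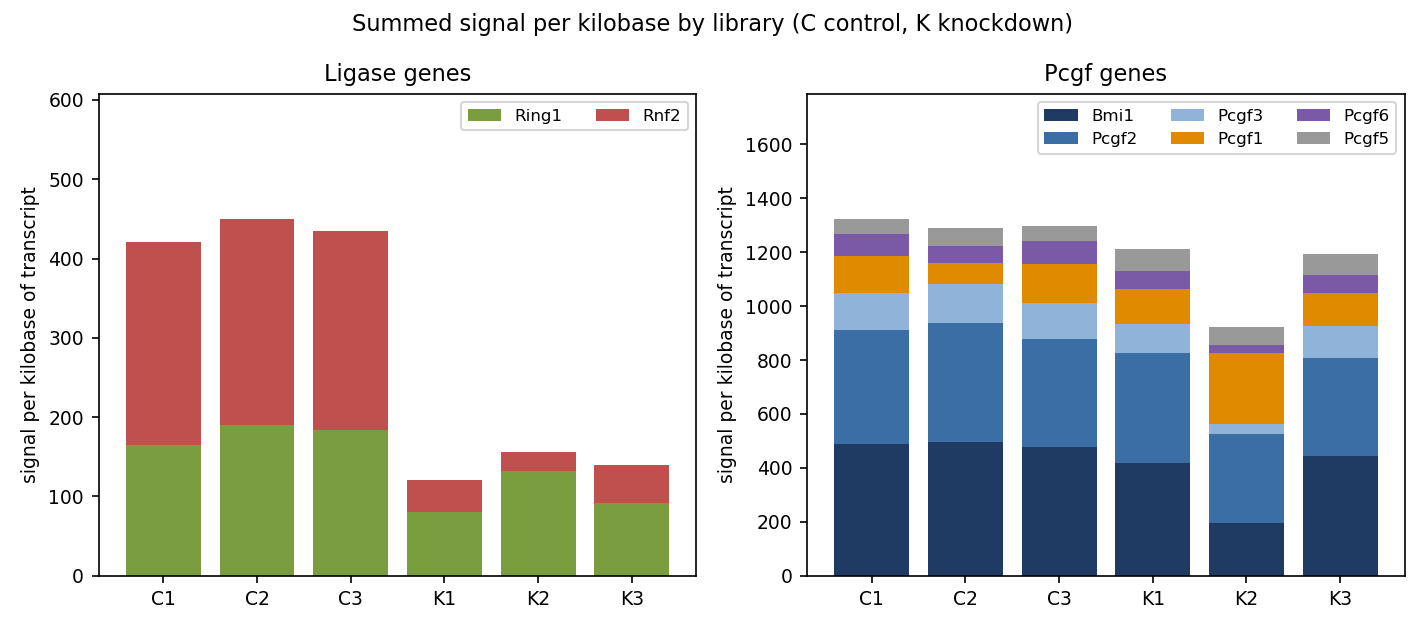
Stacked signal per kilobase of principal transcript for the ligase genes (left) and the Pcgf genes (right) in each library (C control, K knockdown). The ligase bars drop to 27.6 to 35.8% of the control mean, and at these lengths Ring1 is 65.7 to 84.6% of them in the knockdowns, while the Pcgf bar is lowest in K2.

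Of the Pcgf genes, none was called with all 6 libraries (0 of 6 by limma, and 0 of 6 at an unadjusted p under 0.05), with adjusted p between 0.358 for Pcgf3 and 0.489 for Pcgf1. Of the 8 members 1 was called lower and 0 higher. Over 12085 genes tested, 1.78% were called lower and 3.2% higher. The groups did not overlap in 4 members, which were Ring1, Rnf2, Bmi1 and Pcgf3, all with the knockdowns below the controls. Among all tested genes 23.7% had all knockdowns below all controls and 20.5% had all above.

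Bmi1, a Polycomb gene that restrains the Cdkn2a locus in many cell types, had the highest signal of the members in the controls. Control libraries gave Bmi1 values of 1548, 1576 and 1510, and knockdown libraries 1326, 625 and 1411. All knockdowns were lower, but replicate 2, where Bmi1 read below Pcgf2, stood at 40.5% of the control mean against 88.6% for the mean of the other knockdowns. With all libraries the log2 fold change was −0.55 with a 95% interval of −1.38 to 0.28, which includes 0. Without replicate 2 a small fall passed the test (log2 fold change −0.17, SE 0.05, limma adjusted p = 0.0178).

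Pcgf2 (also called Mel18), the other canonical Pcgf gene, read 867, 902 and 825 across controls and 833, 676 and 746 across knockdowns. The groups overlapped through knockdown replicate 1. The log2 fold change was −0.21 (95% interval −0.57 to 0.15), and without replicate 2 it was −0.13 (−0.28 to 0.02), so this gene had the narrowest interval of the Pcgf family with all 6 libraries. Bmi1 and Pcgf2 together made up 68.6, 72.5 and 67.6% of Pcgf RNA per kilobase in the controls and 67.8, 57.0 and 67.6% in the knockdowns. Only replicate 2 lay clearly outside the control range, and the difference in means of −5.41 percentage points was close to the spread between libraries of 4.72 (exact permutation p = 0.2, two-sided). Without knockdown replicate 2 it was −1.85 points.

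Pcgf3 and Pcgf5 encode closely related subunits of variant PRC1. For Pcgf3, control replicates 1 to 3 read 1069, 1115 and 1023 and knockdown replicates 1 to 3 read 831, 281 and 897. Every knockdown was lower, and replicate 2 by far the lowest. The fit over all libraries gave −0.85 with a 95% interval from −1.99 to 0.30. Without replicate 2 Pcgf3 fell (log2 fold change −0.31, SE 0.06, limma adjusted p = 0.00149). Pcgf5 signal was 91.9, 108 and 87.6 among controls and 129, 102 and 122 among knockdowns. Knockdown replicates 1 and 3 were above every control, while replicate 2, on about 24 reads, lay among them. It was the only member to rise without replicate 2 (log2 fold change 0.39, SE 0.14, limma adjusted p = 0.038), and with all libraries its log2 fold change was 0.29 (95% interval −0.16 to 0.74). The span of Pcgf5 overlaps that of an antisense gene, F530104D19Rik, in the GENCODE M21 annotation, and no source used here gives the strand setting of the counts. Rnf2 likewise overlaps Trmt1l on the opposite strand. Both also overlap annotated genes on the same strand. Whether exons overlap was not examined.

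Pcgf1 builds the variant complex that Kdm2b brings to CpG islands. Control libraries gave Pcgf1 values of 126, 72.7 and 134, and knockdown libraries 121, 242 and 114. The groups overlapped, with the 2 shallowest libraries at the extremes, control replicate 2 on about 29 reads and knockdown replicate 2 on about 57. The log2 fold change was 0.48 (95% interval −0.49 to 1.45) with all libraries and 0.13 (−0.41 to 0.68) without knockdown replicate 2. Pcgf6, whose product joins L3mbtl2, Mga, Max and E2f6, read 171, 133 and 183 across controls and 145, 63.8 and 147 across knockdowns. Knockdown replicate 2, with about 15 reads, was again the lowest, and the others lay within the control range. The log2 fold change of Pcgf6 was −0.54 (95% interval −1.46 to 0.39) and, without replicate 2, −0.14 (−0.45 to 0.17).

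Leaving out knockdown replicate 2 thus gave 4 members called lower (Ring1, Rnf2, Bmi1 and Pcgf3), 1 called higher (Pcgf5) and 3 not called (Pcgf1, Pcgf2 and Pcgf6). In that fit 26.1% of 11995 tested genes were called lower and 23.8% higher, so a call in either direction was common among all genes. Without replicate 2 the log2 fold changes of Rnf2 and Ring1 were −2.53 and −1.06, while those of the 6 Pcgf genes lay between −0.31 and 0.39. With all 6 libraries Ring1 was at −0.86 and Pcgf3 at −0.85, and without knockdown replicate 1 Ring1 was at −0.70 and Pcgf3 at −1.09. The difference between ligase and Pcgf genes was not tested.

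**Figure D3:**
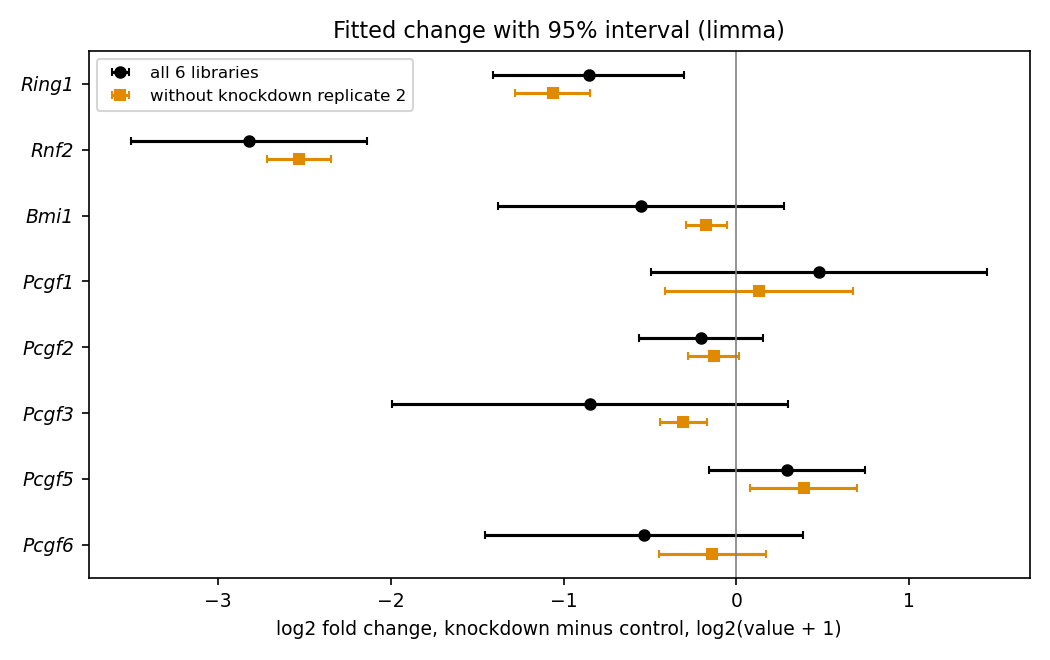
Log2 fold change (knockdown minus control on log2(value + 1)) with 95% intervals from limma for each gene, with all 6 libraries (black) and without knockdown replicate 2 (orange). Intervals narrow without that library, and all 6 Pcgf genes then lie between −0.31 and 0.39, against −1.06 for Ring1 and −2.53 for Rnf2.

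The departure of knockdown replicate 2 from the other knockdowns differed between members and moved with transcript length. Relative to the mean of replicates 1 and 3 it was 1.04 log2 units higher for Pcgf1, whose principal transcript is 918 nt long, and 0.62 higher for Ring1 (2034 nt). The difference was −0.22 for Pcgf2 (2051 nt), −0.29 for Pcgf5 (1566 nt) and −1.18 for Pcgf6 (2159 nt). The 3 longest gave −0.86 for Rnf2 (3180.5 nt), −1.13 for Bmi1 (3170.5 nt) and −1.62 for Pcgf3 (7708 nt). Spearman's rho with length was −0.83 over the 8 members, which share the same libraries, and −0.60 over 10893 tested genes with a length. Split into 4 bins by length, all genes had a median difference of 1.09 among the shortest transcripts (median 1399.5 nt) and −0.96 among the longest (median 5834 nt). With the length trend taken out of each library, no Pcgf gene was called, Pcgf3 was at −0.41, and Pcgf1 and Pcgf5 changed sign to −0.072 and −0.038. What set this library apart was not tested.

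**Figure D4:**
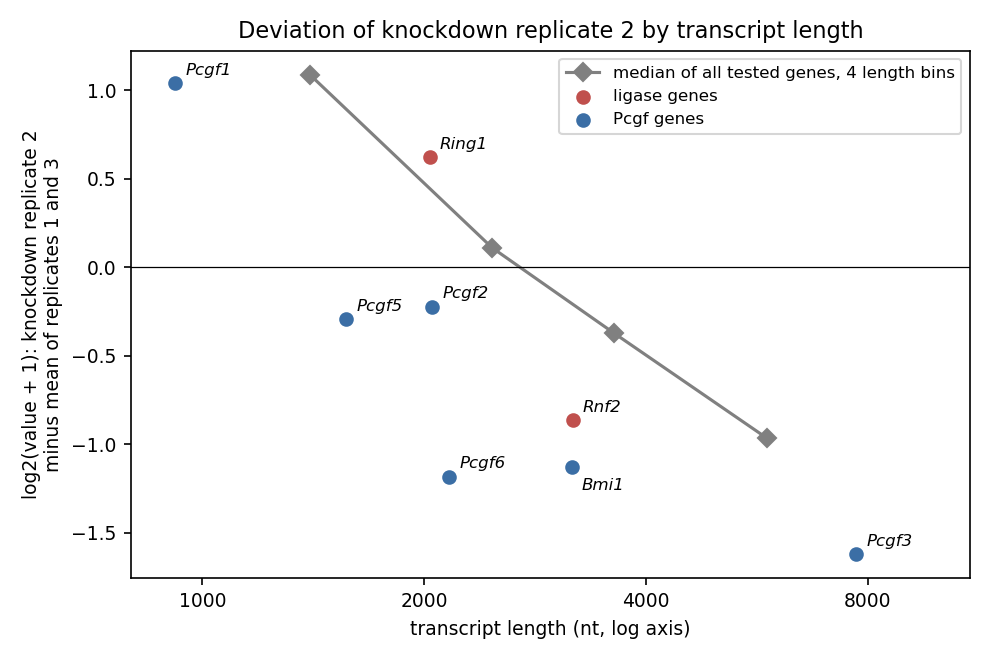
Difference in log2(value + 1) between knockdown replicate 2 and the mean of replicates 1 and 3 against transcript length (log axis) for the ligase (red) and Pcgf (blue) genes, with medians of all tested genes in 4 length bins (grey). The difference runs from 1.04 for the 918 nt Pcgf1 to −1.62 for the 7708 nt Pcgf3.

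Compared per kilobase, the control cells carried mainly Bmi1 and Pcgf2 among the Pcgf transcripts. Levels per kilobase were 487 ± 10.5 for Bmi1, 422 ± 18.9 for Pcgf2, 139 ± 5.94 for Pcgf3, 121 ± 36.2 for Pcgf1, 75.3 ± 12.2 for Pcgf6 and 61.2 ± 6.77 for Pcgf5 (SD, n = 3). Bmi1 and Pcgf2 did not overlap each other or any lower gene over the 3 controls, while the neighbours Pcgf3 and Pcgf1, Pcgf1 and Pcgf6, and Pcgf6 and Pcgf5 each overlapped. As shares of the Pcgf RNA per kilobase, the controls averaged 37.3% Bmi1, 32.3% Pcgf2, 10.6% Pcgf3, 9.24% Pcgf1, 5.77% Pcgf6 and 4.69% Pcgf5. The knockdowns averaged 31.0, 33.2, 7.53, 16.6, 4.81 and 6.78% in the same order. Per kilobase Bmi1 was at 353 ± 136 and Pcgf2 at 366 ± 38.3 in the knockdowns (SD, n = 3). In knockdown replicate 2 alone the Pcgf1 share was 28.6%, against 10.9 and 10.4% in the other knockdowns. In the order of all 8 genes, Rnf2 came below Pcgf2, and Ring1 followed above Pcgf3. The lengths are those of the principal coding transcripts, and the isoform present in these cells is not known. With the longest coding transcript in its place the order was the same, but Pcgf5 was at 14.9 ± 1.64 per kilobase, apart from Pcgf6, since its longest transcript has 6443 nt. With the median length of all coding transcripts, Rnf2 moved above Pcgf2 and Pcgf3 above Ring1, and the rest of the order was the same. The shares moved more, to 71.8% Bmi1, 14.1% Pcgf2 and 3.73% Pcgf1 in the controls. These medians are 617 nt for Bmi1 and 1106 nt for Rnf2, far below the 3170.5 and 3180.5 nt of their principal transcripts. The near-equal levels of Bmi1 and Pcgf2 therefore hold for the principal and longest transcripts and not for these lengths.

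Most genes that work with these subunits were not called. Of 50 genes in 7 partner lists, 49 were tested, and limma called 3 higher and 0 lower. Over all 12085 tested genes, 3.2% were called higher and 1.78% lower. Scmh1, which encodes a sterile alpha motif protein of canonical PRC1, read 742, 709 and 756 across controls and 1178, 1250 and 1123 across knockdowns (log2 fold change 0.68, limma adjusted p = 0.0461, SE 0.13). It was the 1 gene called among 10 canonical partners, the Cbx, Phc and Scm genes, whose median log2 fold change was −0.16. E2f6, a repressor of the E2F family that sits in the Pcgf6 complex, read 248, 236 and 260 across controls and 823, 616 and 860 across knockdowns, a 3.09-fold rise (log2 fold change 1.61, limma adjusted p = 0.0116, SE 0.18). The other 8 Pcgf6 partners were not called, and the list median was 0.044. Phf19, an accessory subunit of PRC2 that reads methylated histone H3, read 32.1, 32.6 and 25.3 across controls and 113, 76.5 and 119 across knockdowns (log2 fold change 1.73, limma adjusted p = 0.0214, SE 0.25). The other 10 PRC2 genes were not called, and the list median was −0.21. In Scmh1, E2f6 and Phf19 the knockdown libraries lay above every control, as they did in 20.5% of all tested genes, while 23.7% had all knockdowns below. The 3 calls held without knockdown replicate 2, at log2 fold changes of 0.64 for Scmh1, 1.76 for E2f6 and 1.93 for Phf19, but each was lost when any of the other 5 libraries was left out (limma adjusted p from 0.0563 for E2f6 without knockdown replicate 3 to 0.246 for Scmh1 without control replicate 3). Ezh1, an alternative catalytic subunit of PRC2 singled out after its values were seen, missed the threshold narrowly in the other direction. Its values were 1065, 1090 and 978 among controls against 624, 391 and 530 among knockdowns, with no overlap (log2 fold change −1.04, limma adjusted p = 0.05003). It was called lower without knockdown replicate 2 (−0.86, limma adjusted p = 3.59e-06) and with the length trend removed (−0.86, limma adjusted p = 0.0111). Max, a partner in the Pcgf6 complex, was at −0.35 (limma adjusted p = 0.255), and was called lower in those fits as well (−0.43 and −0.55).

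In the remaining lists 0 genes were called (limma, with all 6 libraries, and 0 at an unadjusted p under 0.05). Rybp and Yaf2, the shared subunits of variant PRC1, had log2 fold changes of 0.38 and 0.12. Rybp read 819, 764 and 823 across controls and 1450, 599 and 1305 across knockdowns, with replicate 2 alone below the controls, and it rose without that library (log2 fold change 0.78). Yaf2 was called higher without it too (log2 fold change 0.29). Among the Pcgf1 partners, Skp1a and Usp7 had log2 fold changes of 0.52 and −0.27 with all libraries, and 0.012 and −0.058 without knockdown replicate 2. Among those of Pcgf3 and Pcgf5, the kinase gene Csnk2a1 had −0.35 and, without that library, −0.19 (called lower), while Csnk2b turned from 0.42 to −0.14. Among the H2A deubiquitinases and their cofactors, Asxl1 had −0.16 and −0.047, and Bap1 turned from −0.037 to 0.11. With all 6 libraries the medians of these lists lay between −0.30 and 0.25, against 0.0057 over all tested genes. Without knockdown replicate 2, 11 of the 49 partner genes were called higher and 14 lower, beside the shares of 23.8 and 26.1% among all genes. By list, the calls higher and lower were 1 and 3 of the 10 canonical partners, 2 and 0 of Rybp and Yaf2, 1 and 1 of 5 Pcgf1 partners, 0 and 2 of 6 partners of Pcgf3 and Pcgf5, 3 and 1 of 9 Pcgf6 partners, 0 and 3 of 6 deubiquitinase genes, and 4 and 4 of 11 PRC2 genes.

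**Figure D5:**
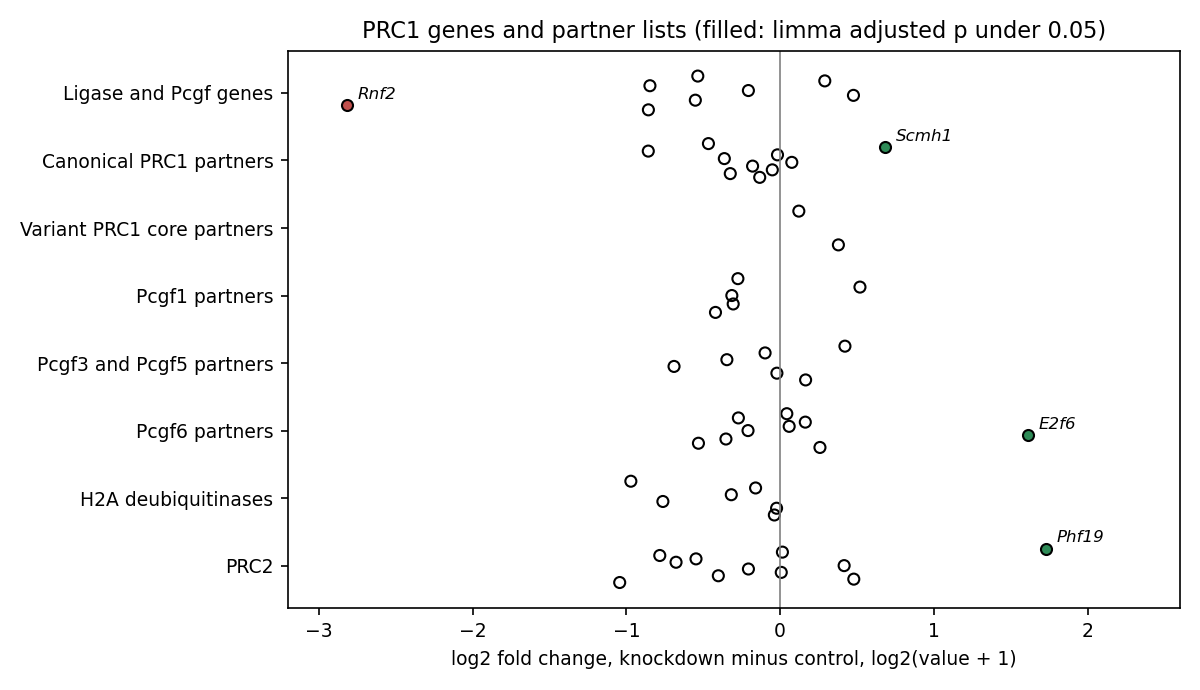
Log2 fold change (knockdown minus control) of the ligase and Pcgf genes and of each tested partner gene by list, with filled points for limma adjusted p under 0.05 over all genes (red lower, green higher). Rnf2 at −2.82 is the only filled point below 0, and Scmh1, E2f6 and Phf19 are the 3 above.

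The genes most like the ligases over the 6 libraries kept different shares of their control level. By Pearson correlation of log2 values over the 6 samples, among the 10735 genes averaging 50 or more, the 5 nearest to Rnf2 were Tcf3, Ralgapa2, Plxnb3, Wdr48 and Dclk2 (r from 0.9990 to 0.9998). Their knockdown means were 75.9, 19.3, 8.94, 71.7 and 42.4% of the control mean, beside 14.6% for Rnf2. Those nearest to Ring1 were Sgsm2, Slc38a7, Max, Qars and Trappc9 (r from 0.992 to 0.995), at 74.6, 84.9, 78.6, 84.9 and 77.6%, beside 56.3% for Ring1. These correlations describe a pattern of 6 points that share their libraries, and 76 genes reached an r of 0.99 with Rnf2 and 5 with Ring1.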

How the data were processed

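RNA sequencing of 6 samples was used. Libraries were Illumina TruSeq, per the labels' protocols, and the submitters' processing notes name RSEM 1.2.12, Bowtie 1.0.0 and build mm9. The authors deposited a normalized signal per gene (median normalized, per the name of the table). For 323 genes, chosen with a fold cutoff per the name of their table, they also deposited a knockdown-to-control ratio. RSEM can share reads among near-identical genes. The value of 1 read was taken as each library's most frequent value above 0. Low values (at most 20 reads) were whole within 0.1 read in 88.5 to 90.5% of cases, and 42 of 48 member values were, so no count test was run. Floors of 3 reads were 0.777 to 12.8.

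Genes with a mean of at least 10 were fitted together by limma 3.58.1 (R 4.3.3) after a log2(value + 1) transform. The contrast was knockdown minus control, with trend and robust moderation, two-sided, at a Benjamini-Hochberg threshold of 0.05. The fit was also run on simulated data of equal spread in all libraries, which cannot show how it handles an outlying library. Called, rose and fell mean past that threshold. Single ratios used an exact permutation test (scipy 1.17.1). Transcript lengths were medians of the principal coding transcripts in GENCODE M21 on GRCm38. Named partner genes were those called, up to 4 a list, or else the most abundant pair. Likeness used 5 genes per ligase. The members and lists were chosen with earlier results of these data known. The labels number the replicates without naming separate cultures: the p-values then measure only how far these samples spread, which may be technical. Every pair of replicates differed beyond counting noise (chi-square over its degrees of freedom at least 1.50).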

Additional observations from a re-analysis of the deposited data

How the results depend on the processing

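Rnf2 stayed negative in all 16 alternative fits (−3.02 to −2.53) and Ring1 too (−1.16 to −0.70), and Rnf2 passed the threshold in 11 of them and Ring1 in 4. With all 6 libraries 387 genes were called higher and 215 lower. Total scaling, which moved the median of all genes to −0.14, gave 184 and 118, with 2 members lower (Ring1 at −0.999). Upper-quartile scaling gave 130 lower. Removing the length trend gave 771 and 503, with 2 members lower (Ring1 at −1.03). Pcgf1 and Pcgf5 turned to −0.072 and −0.038 in that fit, with intervals that run from negative to positive. Library weights, whose estimation stopped before converging, gave 4214 and 4596, with 5 members lower and 1 higher (Ring1 at −1.16). Leaving out 1 library gave 0 to 2855 genes higher and 0 to 3136 lower, with 0 to 4 members lower and 0 to 1 higher, Rnf2 from −3.02 to −2.53 and Ring1 from −1.06 to −0.70. The counts of 0 were without control replicate 1, 2 or 3 (limma, 1495, 1529 and 1475 genes at an unadjusted p under 0.05). The replicate block called 0 genes higher, 0 lower and 0 members (1866 at an unadjusted p under 0.05), with Rnf2 at −2.82 (limma adjusted p = 0.102). Same-numbered samples deviated together at 0.17, −0.051 and −0.051, and unlike-numbered ones at −0.17 to 0.11. Deviations within so small a group are tied to each other, so these values cannot decide whether samples are paired. The numbers were not taken as pairs because the labels name none. With the median of all coding transcripts, added after seeing the data, the ligases together retained 22.8% in place of 31.8%. The causes were not tested. Depth limits Rnf2, Pcgf5 and Pcgf6 most in knockdown replicate 2.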
